A study of Homo sapiens with 36 samples.

Results

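Vitamin A signaling was followed through 10 genes in melanoma cells with or without induced NR2F1: the retinoid receptors RARA, RARB, RARG, RXRA, RXRB and RXRG, the binding protein CRABP2, and the enzymes DHRS3, CYP26B1 and ALDH1A3. They were taken by name, matched through Ensembl gene identifiers, from the 60656 genes listed for each library. The choice was made with earlier results of these data known. Counts of these genes set beside shares of all genes below are therefore descriptions and no test. All 10 were found and all 10 had enough signal to be tested in every comparison. RNA-Seq had been done on 1205LuTR-NR2F1, WM793TR-NR2F1 and A375TR-NR2F1, 3 established BRAF-V600E melanoma lines (called 1205Lu, WM793 and A375 here) that carry NR2F1, an orphan nuclear receptor of the COUP-TF family, under control of doxycycline (DOX). The 4 treatments of every line were DMSO alone, DMSO + DOX, BRAFi + MEKi (the BRAF inhibitor PLX4720 at 1 µM with the MEK inhibitor PD0325901 at 35 nM) and BRAFi + MEKi + DOX, each for 72 hours, with DOX at 100 ng/mL added 24 hours earlier where it was used. This gave 12 groups of 3 replicates and 36 libraries. Every line carried the inducible construct and no library had DOX without it, so an effect of DOX and an effect of the NR2F1 it induces cannot be told apart here, and A375 was grown in another medium than 1205Lu and WM793, so line and medium cannot be told apart either.

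Retinoic acid is made from retinol in a chain of oxidations, enters the nucleus with the help of a binding protein, and acts by binding the retinoic acid receptors. These receptors sit on DNA as heterodimers with the retinoid X receptors, which also pair with the vitamin D, thyroid hormone and PPAR receptors. Cells restrain the signal through reducing and oxidizing enzymes that are themselves switched on by retinoic acid, and COUP-TF receptors such as NR2F1 can bind the same DNA repeats and can pair with RXR. In melanocytes and melanoma cells retinoic acid is known for slowing growth and favoring differentiation.

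The receptors were RARA (ENSG00000131759.18, chr17:40309180-40357643, plus strand), RARB (ENSG00000077092.19, chr3:24687887-25597932, plus strand), RARG (ENSG00000172819.17, chr12:53210567-53232980, minus strand), RXRA (ENSG00000186350.12, chr9:134317098-134440585, plus strand), RXRB (ENSG00000204231.11, chr6:33193588-33200665, minus strand) and RXRG (ENSG00000143171.13, chr1:165400922-165445355, minus strand). Positions are those of GENCODE 44 on GRCh38. CRABP2 (ENSG00000143320.9, chr1:156699606-156705816, minus strand) carries retinoic acid to its receptors. DHRS3 (ENSG00000162496.9, chr1:12567910-12618210, minus strand) reduces retinaldehyde back to retinol, and CYP26B1 (ENSG00000003137.8, chr2:72129238-72147862, minus strand) oxidizes retinoic acid for removal. ALDH1A3 (ENSG00000184254.17, chr15:100877714-100916626, plus strand) makes the last step from retinaldehyde to retinoic acid. The library kit as described does not keep strand, so reads of RXRB cannot be told apart from those of the overlapping SLC39A7 on the opposite strand where the transcripts meet, nor those of RARA and ALDH1A3 from RARA-AS1 and ALDH1A3-AS1. The mean values of these overlapping genes were 9127, 39.8 and 35.4.

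Promoter sequences are shown for RARB, whose start holds the textbook retinoic acid response element, and for CRABP2 and RXRG as examples of a lone core motif, chosen because they hold one. Windows of 250 bases before to 50 bases after a start were taken from RefSeq (GRCh38.p14), 19 windows for the 10 genes, and searched on both strands for the receptor core motif in 4 spellings (AGGTCA, its variants AGTTCA and GGGTCA, and also GGTTCA) and for direct repeats of it with 1, 2 or 5 bases between (DR1, DR2 and DR5). The only direct repeat in these windows was a DR5 of RARB, at positions -53 to -37 before the start at chr3:25428263. A DR5 stood in 0.0883% of all 35116 windows, while any core motif, single or within a repeat, stood in 38.6%. The window of CYP26B1 held 0 core motifs, as did those of RARG, RXRB and ALDH1A3, and of the 3 RARA windows 1 held 2. Each stretch below is read on the gene's strand, for RARB from -120 to -1 (chr3:25428143-25428262), for CRABP2 from -250 to -204 (chr1:156705988-156706034) and for RXRG from -250 to -186 (chr1:165445312-165445376). Capitals mark the DR5 in RARB, and the core motif in CRABP2 and RXRG, where it reads on the opposite strand in RXRG.
RARB: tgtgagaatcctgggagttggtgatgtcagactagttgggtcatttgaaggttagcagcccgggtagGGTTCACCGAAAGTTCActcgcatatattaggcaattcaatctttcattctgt
CRABP2: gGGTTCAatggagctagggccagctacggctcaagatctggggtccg
RXRG: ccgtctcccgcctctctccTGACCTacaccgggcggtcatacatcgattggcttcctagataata
A match is a string of letters and no evidence that a receptor was bound, and the values below are totals per gene that do not separate the 4 RARB starts in the table.

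The values are normalized expression per gene as the authors deposited them, with totals per library of 27027800 to 34622000. NR2F1 was higher with DOX in all lines, with no overlap between groups, and its log2 difference was 1.93, 6.39 and 5.49 under DMSO and 3.33, 4.99 and 4.14 under BRAFi + MEKi in 1205Lu, WM793 and A375. The 1205Lu difference under DMSO did not pass the test (adjusted p = 0.412). DUSP6, a feedback phosphatase switched on by ERK, fell with the inhibitors in every line, to 0.209 and 0.114 of its level under DMSO on the value + 1 scale in WM793 and A375. In 1205Lu it went from 4013, 2661 and 2968 to 75.8, 275 and 305 in replicates 1 to 3, and was at 74.6, 617 and 710.1 with DOX added, replicate 1 being the lowest in both inhibitor groups. The melanoma markers SOX10 (5684 to 24854) and S100B (1100 to 60210) were present in all libraries, the pigment genes MLANA and TYR stayed at 0 to 0.974 and 0 to 4.90, and PMEL ranged from 5.90 to 153. DCT, another pigment gene, rose with BRAFi + MEKi from means of 1.33, 13.4 and 65.9 to 235, 3972 and 9306, among 5 of 8, 5 of 8 and 5 of 9 melanocytic genes tested that rose and 0 that fell (either way, 30.9%, 37.3% and 39.5% of all genes passed), and the part of this in the results below was not tested. Of 7 keratinocyte markers, KRT1 was at 0 throughout, KRT10 was present in all libraries (252 to 804), and KRT14 was at 57.1 to 244 in A375. The sum of the 7 was 287 to 1438. KRT15, another of them, fell with BRAFi + MEKi in 1205Lu from a mean of 191 to 1.96 (log2 difference -6.30). Of 7 fibroblast markers, 1, 2 and 1 rose and 1, 1 and 1 fell with BRAFi + MEKi in 1205Lu, WM793 and A375, beside the shares of all genes above. The part of these markers in the results was not tested. Replicate 1 of 1205Lu stood apart from replicates 2 and 3 in all 4 treatments, on principal component 2 at 58.8 against -68.8 and -69.8 under BRAFi + MEKi + DOX, 73.3 against 1.52 and 6.39 under BRAFi + MEKi, 30.6 against -2.24 and -3.56 under DMSO and 20.8 against -23.2 and -23.7 under DMSO + DOX. NR2F1 under DMSO was also highest in replicate 1 of 1205Lu, at 6273. Calls of the 10 genes that turn on these libraries are given with and without them.

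Under DMSO the lines differed in which receptors they expressed. Levels of different genes are compared per kilobase (kb) of the canonical transcript, and differences between lines were tested by limma's moderated test on log2(value + 1) in a fit of all 36 libraries. In 1205Lu, RARB led with 411 per kb (339 to 454 over 3 libraries), followed by RARG, RXRA and RXRB at 398, 386 and 361 per kb, whose ranges overlap with it. RARA was lower at 116 per kb, and RXRG was nearly silent at 10.4. WM793 turned this order around at both ends. RXRG, the receptor that neural and pigment lineages are known to express, was highest there at 763 per kb (560.4 to 959), level within its spread with RARG at 559 (445 to 641). RARB was lowest at 22.7 per kb, below RXRA at 146 and below RXRB and RARA, which overlapped at 305 and 295. A375 had RARG on top at 846 per kb, then RXRB at 472 and RARA at 358, then RXRA and RARB, overlapping at 187 and 162, and RXRG last at 19.3.

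**Figure D1:**
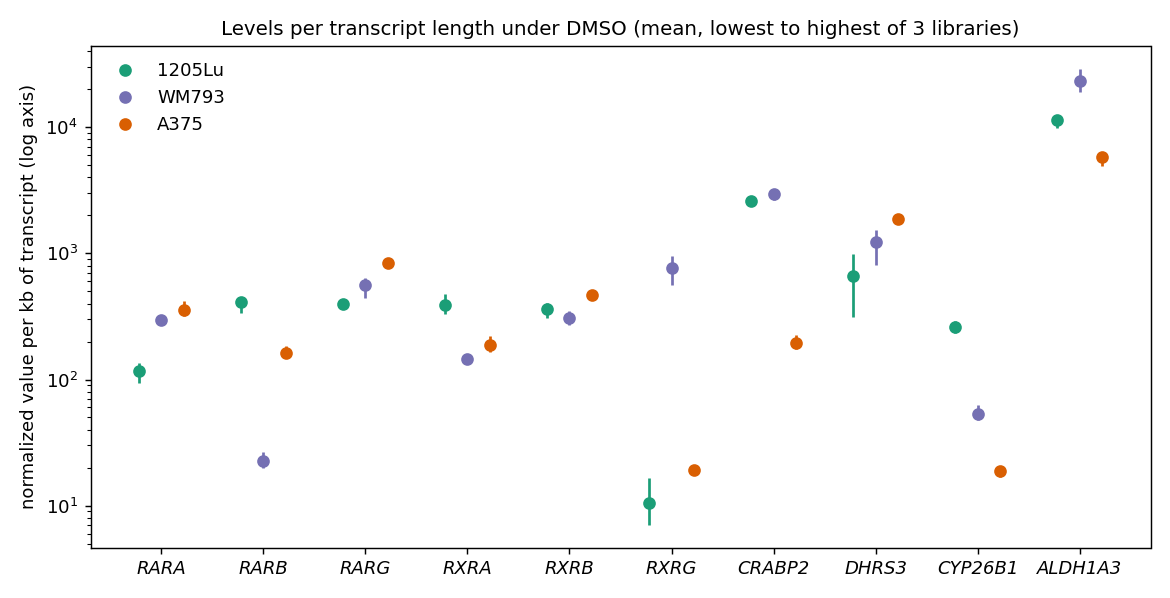
Normalized value per kb of canonical transcript (log axis) of the 10 genes in the 3 DMSO libraries of each line, with points at the mean and bars from the lowest to the highest library. Of the 3 lines, WM793 has the lowest RARB and the highest RXRG, and A375 the lowest CRABP2 and CYP26B1.

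Among the other genes, ALDH1A3 was the most abundant in all lines, at 11349, 23468 and 5787 per kb in 1205Lu, WM793 and A375. CRABP2 came next in 1205Lu and WM793 at 2593 and 2938 per kb but was at 195 in A375, where DHRS3 held that place at 1887. CYP26B1 was at 262 per kb in 1205Lu, 53.4 in WM793 and 18.8 in A375. For single genes across lines, 7 of the 10 differed between 1205Lu and WM793 (adjusted p under 0.05), where 30.7% of all genes tested did, 9 between 1205Lu and A375 (46.8%), and 7 between WM793 and A375 (47.5%). Values did not overlap for 8, 10 and 10 of the 10 genes in these pairs of lines, as for 34%, 50.2% and 49.9% of all genes. RARB was 17.9 times as high in 1205Lu as in WM793 (log2 difference 4.16 ± 0.24, SE, adjusted p = 1.22e-14), the largest gap of RARB between lines. RXRG in WM793 exceeded A375 by 5.24 ± 0.65 (SE, log2; adjusted p = 7.02e-08) and 1205Lu by more, with -6.19 for 1205Lu minus WM793 (adjusted p = 6.34e-09). CRABP2 did not pass between 1205Lu and WM793 (log2 difference -0.18, 95% interval -0.86 to 0.51), although its values did not overlap. The calls of RARG between 1205Lu and WM793 (without WM793 DMSO replicate 3, adjusted p = 0.0564) and of RXRB and DHRS3 between 1205Lu and A375 (without 1205Lu DMSO replicate 1, adjusted p = 0.0902 and 0.0596) were each lost with that library left out, and RXRB became a call between 1205Lu and WM793 without 1205Lu DMSO replicate 1 (adjusted p = 0.0409), as did RXRA between WM793 and A375 without A375 DMSO replicate 2 (0.0412).

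**Figure D2:**
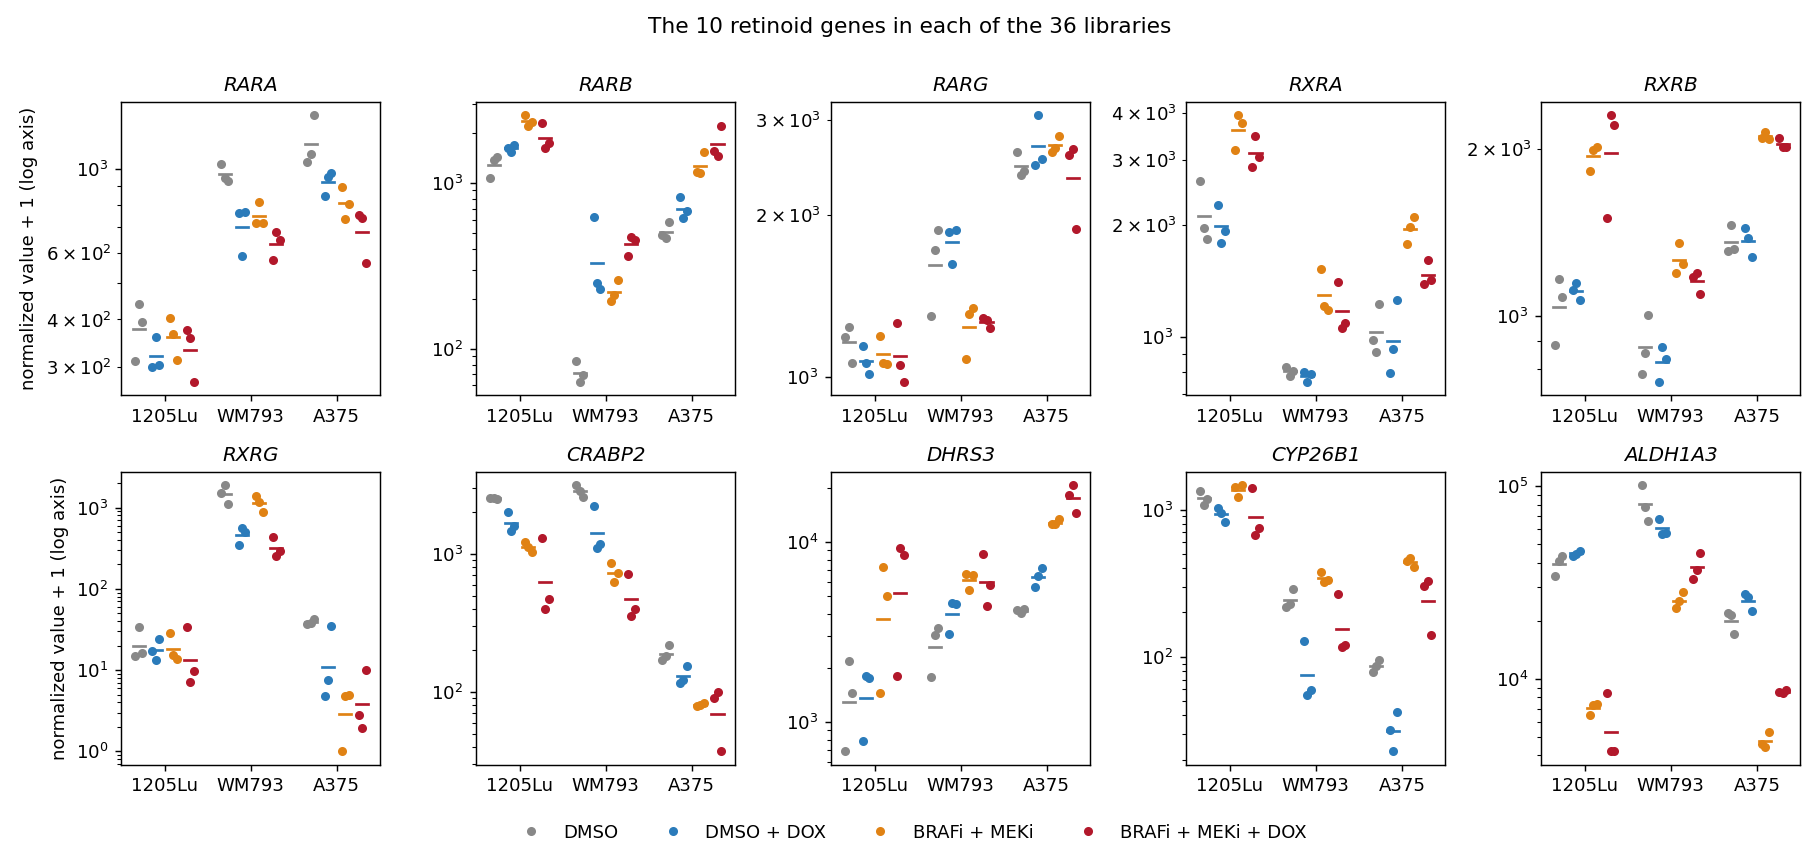
Normalized value + 1 (log axis) of each gene in all 36 libraries, with 3 points per group colored by treatment and a line at the mean of the log values. RARB, RXRA and RXRB sit higher, and CRABP2 and ALDH1A3 lower, under BRAFi + MEKi than under DMSO in each line.

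The question of the inhibitor arm was what BRAFi + MEKi alone does in cells without DOX, the state in which drug-tolerant cells are studied. Of the 10 genes, 5 changed in 1205Lu, 8 in WM793 and 9 in A375, against a background of 30.9%, 37.3% and 39.5% of all genes tested. Of these, RARB, RXRA and RXRB rose and CRABP2 and ALDH1A3 fell in all 3 lines, and in each line the groups of these 5 genes did not overlap, as was so for 43.4%, 45.4% and 52.3% of all genes. Bulk RNA cannot tell a change in the share of cells that express a gene from a change of RNA per cell. Beside these results, 12, 13 and 13 of 14 MAPK output genes fell, and of 16 cell cycle genes 16 fell in 1205Lu and in A375 but 7 in WM793, and the part of the cell cycle genes' fall in the results was not tested.

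RARB, a receptor that is also a classic target of retinoic acid, had the largest rise of the receptors in WM793 and A375. In 1205Lu it was at 1063, 1378 and 1423 under DMSO (replicates 1 to 3 in that order here and below) and at 2552, 2189 and 2343 under BRAFi + MEKi. The log2 difference was 0.88 ± 0.16 (SE, adjusted p = 0.000885). WM793 started far lower, at 83.1, 62.2 and 68.1, and reached 192, 209 and 260.2, a log2 difference of 1.62 ± 0.32 (SE, adjusted p = 0.00129). All treated WM793 libraries lay above all controls yet below every 1205Lu control library. A375 went from 486, 462 and 578 to 1156, 1152 and 1524, with a log2 difference of 1.32 ± 0.18 (SE, adjusted p = 4.61e-05). Tests of the difference between lines in this effect did not pass for any pair, with adjusted p of 0.164 (1205Lu and WM793), 0.449 (1205Lu and A375) and 0.589 (WM793 and A375).

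RXRA and RXRB, the partners of the retinoic acid receptors, rose as well. RXRA moved from 2625, 1963 and 1828 to 3177, 3949 and 3757 in 1205Lu, from 827, 784 and 807 to 1519, 1208 and 1181 in WM793 and from 977, 907 and 1221 to 1777, 1971 and 2096 in A375. The log2 differences were 0.77 ± 0.16, 0.68 ± 0.14 and 0.92 ± 0.16 (SE), with adjusted p of 0.00249, 0.00132 and 0.000465. In every line the lowest treated library exceeded the highest control. For RXRB the log2 differences were 0.91 ± 0.17, 0.52 ± 0.12 and 0.63 ± 0.09 (SE), or 1.88, 1.44 and 1.55 times the control level. RXRG behaved otherwise. It was at 1515, 1885 and 1102 under DMSO in WM793 and 1389, 1173 and 885 under the inhibitors, which overlapped (adjusted p = 0.283). In A375 the low level of 35.9, 36.7 and 41.4 went to 0, 3.77 and 3.96, a fall to 0.0738 of the control on the value + 1 scale (log2 difference -3.76 ± 0.83, SE, adjusted p = 0.00253) close to the smallest values the libraries hold. This fall differed from the effect in 1205Lu (3.62, adjusted p = 0.00712) and in WM793 (3.39, adjusted p = 0.00733), both as log2 of that line minus A375.

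RARA and RARG moved little. RARA fell in A375, from 1043, 1095 and 1381 to 896, 735 and 806 (log2 difference -0.52 ± 0.15, SE, adjusted p = 0.012), and these groups did not overlap. In WM793 both genes passed narrowly, RARA at -0.37 (adjusted p = 0.0495) and RARG at -0.38 (adjusted p = 0.0482), the latter with overlapping values of 1297, 1723 and 1871 against 1082, 1308 and 1343. None of these 3 calls was firm. With libraries rescaled to the same total, which moved the median of all genes by 0.18 in WM793 and 0.14 in A375 on the log2 scale, all 3 were lost, at adjusted p of 0.379, 0.342 and 0.0543. In WM793 leaving out any of the 6 libraries ended the RARA call and all but DMSO replicate 1 the RARG call, with adjusted p up to 0.13 and 0.178, and the A375 call of RARA was lost without DMSO replicate 3 (adjusted p = 0.0611) or BRAFi + MEKi replicate 2 (0.0571).

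CRABP2 fell in each line. In WM793 it was at 3147, 2851 and 2588 under DMSO and at 864, 622 and 726 under BRAFi + MEKi. In 1205Lu it went from 2545, 2538 and 2495 to 1219, 1118 and 1027, and in A375 from 171, 180.4 and 219 to 77.8, 80.0 and 81.8. Control and treated libraries did not overlap in any line. The log2 differences were -1.17 ± 0.32 in 1205Lu, -1.96 ± 0.28 in WM793 and -1.23 ± 0.32 in A375 (SE), with adjusted p of 0.0127, 8.94e-05 and 0.00727.

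Of the enzymes, ALDH1A3 fell in every line and DHRS3 rose in WM793 and A375. ALDH1A3 was at 34250.3, 40747 and 43113 in 1205Lu under DMSO and at 6463, 7289 and 7383 under the inhibitors, a log2 difference of -2.48 ± 0.22 (SE, adjusted p = 4.29e-06). The A375 libraries moved from 21922, 21332 and 16974 to 4599, 4429 and 5291 (log2 difference -2.07). WM793 kept the most, with 100931, 77854 and 65451 going to 23190.5, 25310.2 and 28051 (log2 difference -1.66). After treatment every WM793 library was still above all treated libraries of the other lines. The fall was larger in 1205Lu than in WM793 by -0.82 ± 0.26 (SE, log2; adjusted p = 0.0281), a call that leaving out any of 6 libraries ended (adjusted p 0.0524 to 0.0896), namely 1205Lu DMSO replicates 2 and 3, 1205Lu BRAFi + MEKi replicate 1, WM793 DMSO replicates 2 and 3 and WM793 BRAFi + MEKi replicate 3.

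DHRS3, itself induced by retinoic acid in many cells, rose in WM793 from 1771, 3036 and 3346 to 6634, 5411 and 6579 and in A375 from 4188, 4041 and 4229.6 to 12583, 12599 and 13450.1. Its log2 differences were 1.24 ± 0.26 and 1.63 ± 0.12 (SE), with adjusted p of 0.00184 and 3.19e-07. In 1205Lu it was at 686, 2192 and 1454 under DMSO and 1455, 7266 and 5024 under BRAFi + MEKi, so replicate 1 was lowest in both groups and the groups overlapped. The 1205Lu log2 difference of 1.53 did not pass (adjusted p = 0.0976), and it was 2.22 with adjusted p = 0.0228 without BRAFi + MEKi replicate 1. With both 1205Lu replicate 1 libraries under BRAFi + MEKi left out, adjusted p was 0.00318. Each of these fits kept DMSO replicate 1, the lowest control at 686, so 2.22 is not the effect with replicate 1 removed from both groups. CYP26B1, the enzyme that clears retinoic acid, rose in A375, from 77.4, 85.8 and 93.5 to 444, 467 and 408 (log2 difference 2.35 ± 0.31, SE, adjusted p = 4.27e-05). In WM793 it was at 216, 228 and 286 under DMSO and 378, 322 and 329.8 under the inhibitors, higher without overlap but not passing (log2 difference 0.50 ± 0.35, SE, adjusted p = 0.292), and in 1205Lu the groups overlapped (log2 difference 0.20, adjusted p = 0.562). The A375 effect differed from 1205Lu by -2.15 (adjusted p = 0.00141) and from WM793 by -1.85 (adjusted p = 0.00315), each as log2 of that line minus A375. The inhibitor effect differed for 1 of the 10 genes between 1205Lu and WM793 (14.5% of all genes), for 2 between 1205Lu and A375 (14.7%) and for 2 between WM793 and A375 (22.8%), where RARG also passed without WM793 DMSO replicate 1 (adjusted p = 0.00958) or WM793 BRAFi + MEKi replicate 3 (0.0472).

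**Figure D3:**
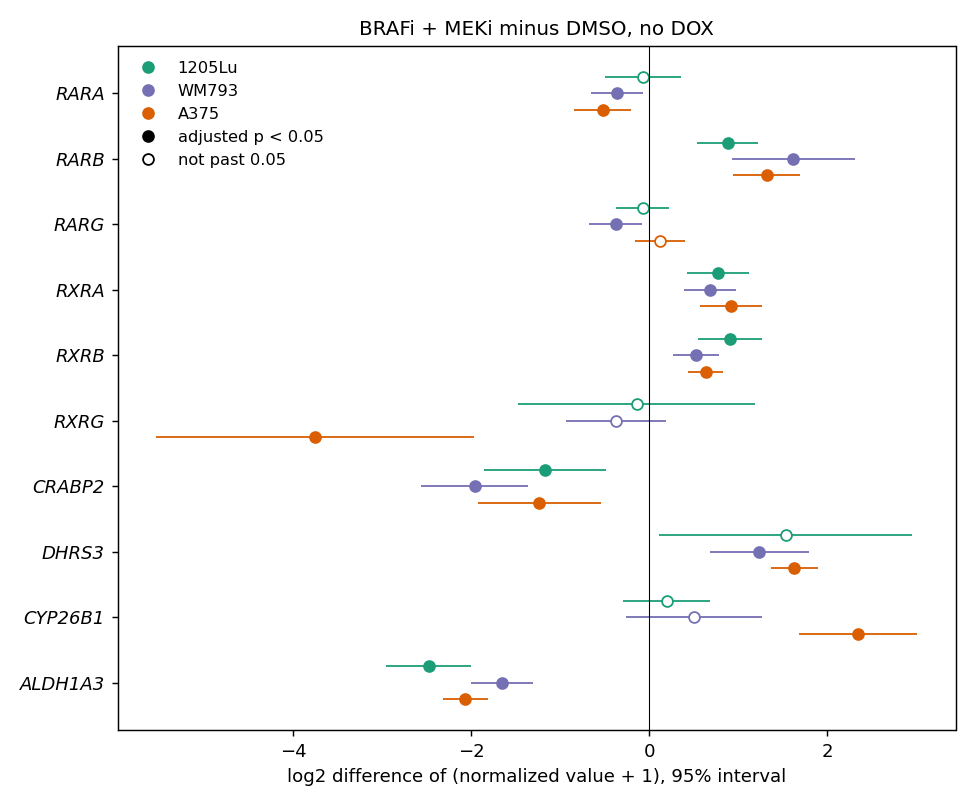
Log2 difference of value + 1 between BRAFi + MEKi and DMSO without DOX, with 95% intervals, for the 10 genes in 3 lines; filled points passed an adjusted p of 0.05. All 3 lines have filled points to the right for RARB, RXRA and RXRB and to the left for CRABP2 and ALDH1A3.

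Induction of NR2F1 under DMSO asked what DOX does without drug pressure. In WM793, 2 of the 10 genes passed, RARB up and RXRG down, where 0.512% of all genes tested passed. No member passed in 1205Lu (0.00903% of all genes) or A375 (0.0492%) by limma's test, although unadjusted p was under 0.05 for 1 and 6 of the 10, as for 6.85% and 7.95% of all genes. RARB in WM793 went from 83.1, 62.2 and 68.1 to 620.2, 247 and 227, a log2 difference of 2.19 ± 0.32 (SE, adjusted p = 0.0105). The libraries with DOX were all above the controls, replicate 1 the highest. With only the 6 libraries compared in the fit, adjusted p was 0.0564. RARB with DOX was also above all controls in 1205Lu, at 1631, 1544 and 1702 (log2 difference 0.35, adjusted p = 0.717), and in A375, at 816, 609.5 and 676 (0.46, adjusted p = 0.557). RXRG in WM793 was at 1515, 1885 and 1102 without DOX and at 342, 555 and 495 with it, 0.311 times the control (log2 difference -1.69 ± 0.26, SE, adjusted p = 0.0136). The groups were far apart, but adjusted p was 0.0599, 0.063 and 0.0502 without DMSO replicate 2, DMSO + DOX replicate 1 and DMSO + DOX replicate 3.

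Whether or not they passed, the groups with and without DOX under DMSO did not overlap for 4 of the 10 genes in 1205Lu, as for 12.3% of all genes, for 5 in WM793 (13.3%), the 2 called among them, and for 7 in A375 (11.7%). CYP26B1 and CRABP2 were lower with DOX in all libraries of all lines. CYP26B1 was at 127, 54.3 and 58.6 with DOX in WM793 against 216, 228 and 286 without, and at 30.7, 21.7 and 41 against 77.4, 85.8 and 93.5 in A375. The log2 differences were -0.36 ± 0.23, -1.69 ± 0.35 and -1.47 ± 0.31 (SE) in 1205Lu, WM793 and A375, with adjusted p of 0.805, 0.0559 and 0.176. In WM793 the call was made without DMSO + DOX replicate 1 (-2.08, adjusted p = 0.0386). CRABP2 was at 0.661, 0.499 and 0.685 of the control on the value + 1 scale, with adjusted p of 0.757, 0.179 and 0.708. RARA was lower with DOX in every library of WM793 and A375, with log2 differences of -0.46 and -0.34, and DHRS3 was higher in all A375 libraries, at 5648, 6468 and 7209 against 4188, 4041 and 4229.6 (log2 difference 0.63, adjusted p = 0.131). RXRG was lower with DOX in A375 too, at 3.77, 6.57 and 33.8 against 35.9, 36.7 and 41.4, where replicate 3 remained close to the controls. ALDH1A3 with DOX was above all controls in 1205Lu, at 43528, 44317 and 46187 (log2 difference 0.19, adjusted p = 0.921), and in A375, at 27428, 26676 and 22424 against 21922, 21332 and 16974 (0.35, adjusted p = 0.47). RARG, RXRA and RXRB overlapped in all lines, with log2 differences from -0.11 to 0.15.

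**Figure D4:**
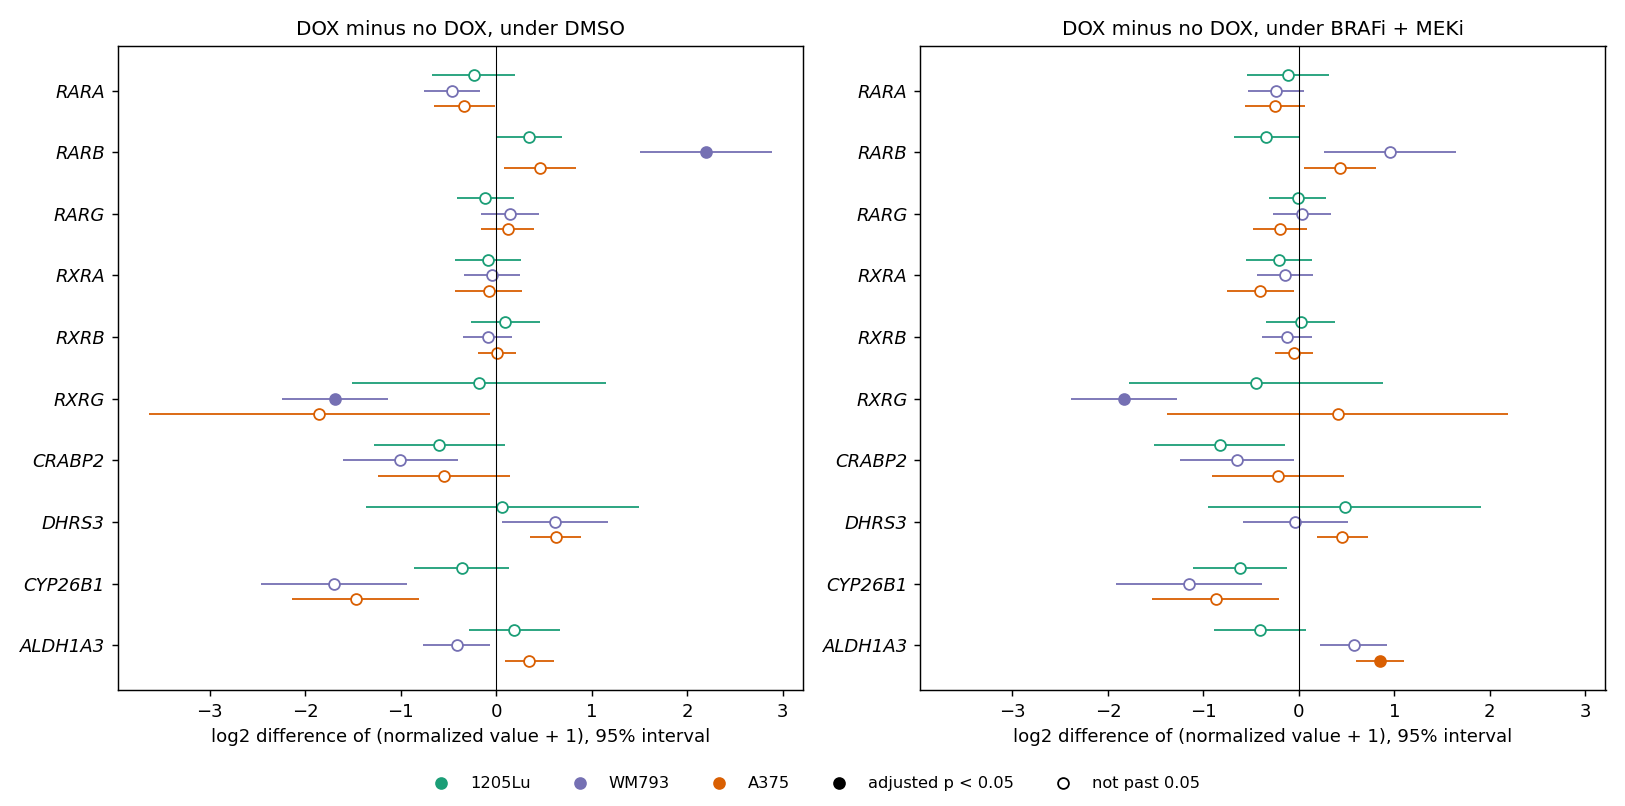
Log2 difference of value + 1 between libraries with and without DOX, under DMSO on the left and under BRAFi + MEKi on the right, with 95% intervals, for the 10 genes in 3 lines; filled points passed an adjusted p of 0.05. Only RARB and RXRG of WM793 are filled on the left, and RXRG of WM793 and ALDH1A3 of A375 on the right.

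Under BRAFi + MEKi, the comparison at the center of the study, DOX moved 1 member in WM793, where 0.204% of all genes tested passed, and 1 in A375 (1.52%). RXRG fell in WM793, from 1389, 1173 and 885 to 438, 249.7 and 290.0, to 0.281 of the level without DOX (log2 difference -1.83 ± 0.26, SE, adjusted p = 0.0151). The highest library with DOX was below the lowest without, but leaving out a library could end the call, as for BRAFi + MEKi replicate 1 (adjusted p = 0.0742), BRAFi + MEKi replicate 2 (0.101), BRAFi + MEKi + DOX replicate 2 (0.112) or BRAFi + MEKi + DOX replicate 3 (0.0909). ALDH1A3 rose in A375, from 4599, 4429 and 5291 to 8490.1, 8402 and 8776 (log2 difference 0.85 ± 0.12, SE, adjusted p = 0.00107). It stayed below every A375 library without inhibitors, and the call held without each of the 6 libraries in turn (adjusted p 0.00117 to 0.012). The summed level of 16 cell cycle genes also moved with DOX there, from 9382 to 13628 without to 24136 to 37519 with it, and its part in the ALDH1A3 result was not tested. In WM793 the same comparison gave ALDH1A3 a log2 difference of 0.57 (adjusted p = 0.285), with 23190.5, 25310.2 and 28051 without DOX and 33077, 36566 and 44711 with it and no overlap.

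In 1205Lu no member passed under BRAFi + MEKi (0.334% of all genes), where unadjusted p was under 0.05 for 3 of the 10 (and for 9.72% of all genes) and no member had groups apart (12.6% of all genes did). The calls of 3 genes turned on replicate 1. CRABP2 with DOX was at 1312, 402 and 475 against 1219, 1118 and 1027 without, CYP26B1 at 1405, 667 and 747 against 1416, 1220.0 and 1465, and ALDH1A3 at 8408, 4237 and 4195 against 6463, 7289 and 7383. In each case replicate 1 with DOX lay within or above the range without DOX and the other libraries with DOX lay below it. Without BRAFi + MEKi + DOX replicate 1 all 3 genes passed, with log2 differences of -1.36 (adjusted p = 0.00113), -0.95 (0.00796) and -0.74 (0.0142). With both replicate 1 libraries left out, a fit chosen after seeing the data, the same 3 passed, at -1.29 (adjusted p = 0.00298), -0.92 (0.0205) and -0.80 (0.0161). Replicate 1 was the highest library with DOX for all 3 genes, so leaving it out lowers their mean with DOX in either fit. The summed level of 16 cell cycle genes was 10986 to 26817 without DOX and 39260 to 45328 with it, 4 of the 16 being called higher. That of 14 MAPK output genes was 17570 to 25911 without DOX and 14829 to 15564 with it, with 0 called. Of 8 melanocytic genes tested 1 was called lower, EDNRB (means of 2311 to 905). Of 4 endothelial markers tested 1 was called higher, KDR (18.8 to 116). The part of all these genes in the values above was not tested. NR2F1 itself was at 35187, 35345 and 30839 in the libraries with DOX, with replicate 1 inside the range of the others.

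CYP26B1 did not pass the test in the other lines either. It was at 264, 115 and 119.8 with DOX against 378, 322 and 329.8 without in WM793, and at 303, 325 and 140.3 against 444, 467 and 408 in A375. Neither pair of groups overlapped, which was so for 5 of the 10 members in WM793 (14% of all genes) and 4 in A375 (15.4%), CYP26B1 included. The log2 differences were -1.15 ± 0.35 and -0.87 ± 0.31 (SE), with adjusted p of 0.343 and 0.276. In WM793, RARB with DOX was above all libraries without, at 363, 468 and 451 against 192, 209 and 260.2 (log2 difference 0.95, adjusted p = 0.388), and RARA below, at 573, 681 and 648 against 719, 815 and 718. RARB in 1205Lu had the other sign, at 2285, 1619.9 and 1738 with DOX against 2552, 2189 and 2343 without, with overlap (log2 difference -0.34, adjusted p = 0.512). A375 had RXRA lower (-0.40, adjusted p = 0.371) and DHRS3 higher (0.46, adjusted p = 0.115), and DHRS3 passed without BRAFi + MEKi + DOX replicate 3 (0.60, adjusted p = 0.0185). In 1205Lu and WM793, where every pair of libraries of the same replicate number correlated above 0.1, a fit with the replicate number as a block raised the calls over all genes from 74 to 364 and from 45 to 127 and left the members at 0 and 1.

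Whether DOX acted differently with and without the inhibitors was tested as an interaction, and no member passed in any line, where the share of all genes that passed was 0%, 0% and 0.46% in 1205Lu, WM793 and A375. By limma's unadjusted p, 1, 2 and 1 of the 10 were under 0.05, as were 5.72%, 5.72% and 7.25% of all genes. ALDH1A3 in WM793 was the nearest, with a log2 difference of -0.41 with DOX under DMSO and 0.57 under BRAFi + MEKi (interaction 0.98 ± 0.23, SE, adjusted p = 0.477). RARB in WM793 had 2.19 and 0.95 (interaction -1.24 ± 0.45, SE, adjusted p = 0.769). Between lines, the DOX effect on ALDH1A3 under BRAFi + MEKi differed by -1.25 ± 0.26 (SE, log2, 1205Lu minus A375, adjusted p = 0.0331, where 0.179% of all genes passed). The call rested on the setting, and with only the libraries compared adjusted p was 0.322. It was also lost without any of 7 libraries (adjusted p 0.0606 to 0.115), namely 1205Lu BRAFi + MEKi replicates 2 and 3, 1205Lu BRAFi + MEKi + DOX replicates 2 and 3, A375 BRAFi + MEKi replicates 1 and 2 and A375 BRAFi + MEKi + DOX replicate 3. For 1205Lu minus WM793 it did not pass (-0.98, adjusted p = 0.128), but it did without 1205Lu BRAFi + MEKi + DOX replicate 1 (adjusted p = 0.000806), and so did RARB (0.0327).

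The rest of the retinoid pathway was read from lists of its other genes. With DOX, 1 gene of these lists passed, the corepressor NRIP1 in WM793, of 20 coregulators tested. Its mean went from 3810.3 to 1670.2 under DMSO (log2 difference -1.20 ± 0.14, SE, adjusted p = 0.00382) and from 2928 to 1634 under BRAFi + MEKi (-0.85, adjusted p = 0.0333). With the inhibitors alone, 30.9%, 37.3% and 39.5% of all genes tested passed in 1205Lu, WM793 and A375, and the counts below are to be read against these shares. Of 25, 23 and 23 retinoic acid target genes tested in 1205Lu, WM793 and A375, 3, 5 and 4 rose and 3, 7 and 12 fell, and their median log2 differences were -0.09, -0.50 and -0.74 beside 0.11, 0.15 and 0.06 over all genes. EGR1, which is also an immediate target of ERK, fell most in each line (log2 differences -4.06, -7.40 and -4.19). RARRES1, a retinoic acid responder, rose in 1205Lu from 142 to 495 (log2 difference 1.72, adjusted p = 0.0114), and PLAAT4 rose in WM793 from 3.35 to 41.5 (3.68, adjusted p = 0.00108). TGM2, a transglutaminase induced by retinoic acid, fell in A375 from 30903 to 2409 (log2 difference -3.78, adjusted p = 1.75e-06), and also in 1205Lu and WM793 (log2 differences -3.84 and -2.47).

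Of 6, 7 and 7 genes tested for retinoid transport and storage under BRAFi + MEKi, 0, 1 and 1 rose and 1, 2 and 3 fell in 1205Lu, WM793 and A375. FABP5, which carries retinoic acid to PPARD, fell in all 3, with log2 differences of -2.76, -1.86 and -1.06. STRA6, the retinol uptake receptor, fell in WM793 (3739.8 to 1217) and A375 (3983 to 1696). CRABP1, the close relative of CRABP2, reached a mean of at most 1.63 in the WM793 groups compared. Of 11, 11 and 15 synthesis genes tested, 0, 3 and 3 rose and 2, 2 and 3 fell. RDH10, which makes retinaldehyde, rose in WM793 from 172 to 569.7, and ALDH1A1, a relative of ALDH1A3, fell there from 81.7 to 24.2 (log2 difference -1.56, adjusted p = 0.0204). Of 2, 3 and 5 degradation genes tested, 0, 2 and 2 rose and 0 fell. CYP1B1, a broad oxidase, rose in WM793 from 52.3 to 509 and in A375 from 113 to 1347, and the glucuronosyltransferase UGT2B7 rose in WM793 from 0.202 to 29.3 and in A375 from 179.8 to 334. CYP26A1, the other well-known clearing enzyme, had means of at most 4.81 in WM793 and at most 4.28 in 1205Lu. Of 20 coregulators 4, 3 and 8 rose and 1, 8 and 7 fell, with the acetyltransferase KAT2B up in all lines (2.27, 1.71 and 3.02, log2). Of 10, 10 and 12 receptors tested that pair with RXR, 2, 3 and 3 rose and 2, 3 and 5 fell. THRB, 1 of these, fell in all lines (-1.07, -1.62 and -2.17, log2). VDR rose in 1205Lu (1.23), and NR4A2 rose in A375 (1.42) but fell in WM793 (-1.55). NR2F2, the nearest relative of NR2F1, fell in 1205Lu (-0.84) and WM793 (-0.55) but not in A375 (0.06, adjusted p = 0.809).

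The genes whose pattern was most like each member were read from Pearson's r of log2(value + 1) over the 36 libraries, among 16658 genes with a mean of at least 10. These libraries share line, treatment and scaling, so r describes them and is no test. RXRG was most like VAV2 (r = 0.932) and HTR2C, and ALDH1A3 most like PRKAR2B (0.961), STK10 and MAFF. CRABP2 followed RFLNB (0.962), IDH1 and CNNM4, and RARB followed PARP11 (0.912), KSR2 and ABCB9. The nearest genes were LINC02289 for RARA (0.949), PACSIN3 for RARG (0.956), TBC1D9B for RXRA (0.936), TPRA1 for RXRB (0.950), NFIX for DHRS3 (0.919) and LINC01778 for CYP26B1 (0.885).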

How the data were processed

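RNA-Seq was available for 36 libraries, 3 replicates of 4 treatments in 3 lines, all of which were used. Per the paper's methods and the labels, the authors used STAR for alignment to GRCh38, RSEM for estimates per gene and DESeq2 for normalization. The deposited signal values are these normalized expression values per gene, scaled over all libraries. They are not read counts: low values cluster near, but not on, multiples of 1 step per library, so reads were not recovered and the depth is unknown. The commonest low value, a rough guide to what 1 read is worth, ranged from 0.49 to 1.92. The study describes its in vitro replicates as independent experiments.

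Of 60656 identifiers, 60445 matched a symbol, and of 179 genes in the lists 178 were found. Genes whose mean reached 1 in any group fitted were tested with limma 3.58.1 (R 4.3.3), with a trend, on log2(value + 1), over the 12 libraries of a line or all 36 between lines. P-values were adjusted by Benjamini-Hochberg over all genes tested, with a threshold of 0.05, and fold changes on this scale understate those of low genes. The script was tested on simulated data. The text names all members, up to 3 called genes with a mean of at least 10 per further list and comparison, those of largest change, and the 3 genes most like each member; genes named outside this rule were chosen after their values were seen, namely CRABP1 and CYP26A1 as not called, TGM2 in WM793, FABP5 in A375, and NR2F2 in A375. Some genes are not reported here. Members and lists were chosen with earlier results of these data known. Coordinates and lengths come from GENCODE 44. Figures were drawn with matplotlib 3.10.9.

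Deviations of samples with the same replicate number correlated positively in every comparison within a line, but every pair was over 0.1, the bar set for pairing, only for DOX under BRAFi + MEKi in 1205Lu (r of 0.27, 0.11 and 0.11 over genes) and WM793 (0.25, 0.18 and 0.11). The alternatives were a pseudocount of 0.1, no filter, only the libraries compared, a replicate block, equal totals, and each library left out in turn. Leaving out both 1205Lu replicate 1 libraries under BRAFi + MEKi was chosen after seeing the data.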

Additional observations from a re-analysis of the deposited data

Results flagged for a closer look

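Differences between lines in the effect of a treatment passed limma's test of the difference itself for 6 results, and no explanation of them was tested. The inhibitor effect differed for 1, 2 and 2 of the 10 genes where 14.5%, 14.7% and 22.8% of all genes passed (1205Lu and WM793, 1205Lu and A375, WM793 and A375), which is near those shares, and the DOX effect under BRAFi + MEKi for 1 of 10 between 1205Lu and A375, where 0.179% passed. The effect of BRAFi + MEKi on CYP26B1 differed by -2.15 between 1205Lu and A375 (adjusted p = 0.00141) and by -1.85 between WM793 and A375 (adjusted p = 0.00315), both on the log2 scale and lower than in A375. The same effect on RXRG differed by 3.62 and 3.39 in these pairs (adjusted p = 0.00712 and 0.00733), where A375 and 1205Lu held low levels of RXRG throughout. For ALDH1A3 the inhibitor effect differed by -0.82 between 1205Lu and WM793 (adjusted p = 0.0281), and the DOX effect under BRAFi + MEKi by -1.25 between 1205Lu and A375 (adjusted p = 0.0331). The 4 results of CYP26B1 and RXRG held with each library left out in turn, whereas those of ALDH1A3 did not.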

How the results depend on the processing

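No member's call changed direction under any setting run. The number of members called was as reported or within 1.5 times of it in the other cases, with these exceptions. It was 3 instead of 0 for DOX under BRAFi + MEKi in 1205Lu, and 1 instead of 0 for the difference of that effect between 1205Lu and WM793, with both 1205Lu replicate 1 libraries under BRAFi + MEKi left out. For DOX under DMSO in WM793 it was 4 with the replicate block and 1 with only the libraries compared, instead of 2. With only the libraries compared, 2 members instead of 1 differed in the inhibitor effect between 1205Lu and WM793, and 0 instead of 1 in the DOX effect under BRAFi + MEKi between 1205Lu and A375, which was also 0 at equal totals. Leaving out each library in turn gave 0 to 3 members for DOX under BRAFi + MEKi in 1205Lu, 0 to 1 in WM793 and 1 to 2 in A375, and 1 to 2 for DOX under DMSO in WM793. Between lines it gave 0 to 1 for the inhibitor effect (1205Lu and WM793), and 0 to 2 (1205Lu and WM793) and 0 to 1 (1205Lu and A375) for the DOX effect under BRAFi + MEKi.

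Where replicate numbers were only shared, the block, which uses the pairing of numbers, added CRABP2 (adjusted p = 0.0137) and CYP26B1 (0.0186) for DOX under DMSO in WM793. It also added DHRS3 (0.000184) for BRAFi + MEKi in 1205Lu and RARG for the inhibitor effect between WM793 and A375 (0.0287). It ended the call of RARA for BRAFi + MEKi in WM793 (0.0522). Between lines under DMSO the blocked fit compared the lines at replicate 1 only. This gave log2 differences of -2.08 for DHRS3 and -0.26 for RARG between 1205Lu and WM793. Such values do not test the line difference over all replicates. Equal totals moved the median of all genes by 0.18 (WM793) and 0.14 (A375) for BRAFi + MEKi, and by -0.10 (1205Lu minus A375) and -0.13 (WM793 minus A375) under DMSO, on the log2 scale; RARA and RXRA then also differed between WM793 and A375 (adjusted p = 0.0252 and 0.00713). RXRG in A375 under BRAFi + MEKi (0 to 3.96) lies within a few times the commonest low value of these libraries, so little can be said of its differences there.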
